A study of Mus musculus with 8 samples.

Results

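The genes described here are the transcription factor genes of the NF-kB pathway, the genes of its inhibitors, and Birc3, a survival gene that NF-kB switches on. They were chosen by name as a list of 10 genes: the Rel family subunits Nfkb1, Nfkb2, Rela, Relb and Rel, the inhibitors Nfkbia, Nfkbib, Nfkbie and Tnfaip3, and Birc3. Each was read from the brightest transcript cluster that carries its symbol alone, where a cluster is the group of probes that stands for a transcript on the array. Of the 10 genes, 9 were measured, among 19938 genes with such a cluster and 35556 clusters in all. Nfkb1 was not analysed here. This list, and the lists of other pathway genes used below, were set with earlier results of these data known. Their counts therefore describe these genes and are not an independent test.

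RNA came from Neuro2a, an established mouse neuroblastoma line from strain AJ. The 4 anchorage dependent (AD) cultures had grown in DMEM with fetal bovine serum, penicillin, streptomycin and glutamine. The 4 anchorage independent (AI) cultures, which the labels call anoikis resistant, had grown as tumorspheres in serum-free NeuroCult neural stem cell medium with its supplements, EGF, bFGF and heparin. Attachment, serum and growth factors therefore changed together, and their parts in any difference below cannot be told apart. The series text describes independent cultures, while the methods speak of replicate hybridizations, so the p-values measure the spread between these arrays, which may in part be technical. All 8 arrays come from the same line, so the results describe its state in these cultures only.

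NF-kB factors are dimers of Rel family proteins. In a resting cell they are held in the cytoplasm by IkB proteins. A signal from a TNF, interleukin 1 or Toll-like receptor passes through adaptor proteins to the IKK kinase complex, which marks IkB for destruction and frees the dimer to enter the nucleus. There it switches on genes of inflammation and survival, and among them the genes of its own inhibitors, so that the signal ends itself. In neurons and in neural tumors the pathway is known for its part in survival and inflammatory signaling.

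The list thus holds genes that NF-kB is known to switch on and a gene, Nfkbib, that is known as an inhibitor with little such feedback. To show their sequences beside the values, promoters of the members were taken from RefSeq (build GRCm38.p6), from 250 bases before to 50 bases after each gene's start. The table held promoters for 8 of the 10 genes, 11 promoters in all, since some genes have several starts. Both strands were searched for the kB consensus, a motif of 10 letters, whose matches can overlap each other. The consensus matched 7 of the 11 promoters, from 5 genes, against 4.51% of 32851 mouse promoters of the same length. As the list holds genes that NF-kB is known to switch on, a high share was likely beforehand and is no test. The matching promoters include several starts of Nfkb2, so they are not independent. Its windows 46305445-46305744 and 46305680-46305979 on chromosome 19 overlap and share a GGGACTTTCC match, so that site is counted in both. The 7 promoters printed below are a selection, with a single start for each gene, and are not the 7 that matched. The promoter of Rela is not printed. Each is written 5′ to 3′ on the strand of its gene with every consensus match in capitals.
Nfkbia, chr12:55492598-55492897, minus strand: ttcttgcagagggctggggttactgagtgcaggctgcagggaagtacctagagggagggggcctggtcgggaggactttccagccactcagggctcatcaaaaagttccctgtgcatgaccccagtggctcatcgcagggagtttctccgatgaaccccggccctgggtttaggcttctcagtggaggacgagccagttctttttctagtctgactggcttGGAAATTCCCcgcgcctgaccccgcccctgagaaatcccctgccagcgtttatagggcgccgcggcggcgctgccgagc
Nfkbie, chr17:45555450-45555749, plus strand: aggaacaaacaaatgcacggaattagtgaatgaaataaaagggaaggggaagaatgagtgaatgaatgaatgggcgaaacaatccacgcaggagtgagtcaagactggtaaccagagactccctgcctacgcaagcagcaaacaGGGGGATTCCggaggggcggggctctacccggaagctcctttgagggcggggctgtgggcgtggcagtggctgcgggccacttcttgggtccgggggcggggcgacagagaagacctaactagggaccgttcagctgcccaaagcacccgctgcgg
Nfkb2, chr19:46305445-46305744, plus strand: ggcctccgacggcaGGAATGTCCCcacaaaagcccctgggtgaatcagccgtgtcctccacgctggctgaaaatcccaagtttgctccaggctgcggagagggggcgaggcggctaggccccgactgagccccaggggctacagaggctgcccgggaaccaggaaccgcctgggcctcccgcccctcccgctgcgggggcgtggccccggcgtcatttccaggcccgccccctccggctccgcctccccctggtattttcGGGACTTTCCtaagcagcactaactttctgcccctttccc
Tnfaip3, chr10:19015361-19015660, minus strand: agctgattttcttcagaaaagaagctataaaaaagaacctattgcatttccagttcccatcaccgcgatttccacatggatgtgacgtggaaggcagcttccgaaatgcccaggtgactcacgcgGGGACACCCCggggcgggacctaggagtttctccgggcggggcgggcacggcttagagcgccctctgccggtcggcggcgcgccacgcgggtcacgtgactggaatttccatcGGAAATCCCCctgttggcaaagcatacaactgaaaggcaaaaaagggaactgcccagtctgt
Rel, chr11:23770920-23771219, minus strand: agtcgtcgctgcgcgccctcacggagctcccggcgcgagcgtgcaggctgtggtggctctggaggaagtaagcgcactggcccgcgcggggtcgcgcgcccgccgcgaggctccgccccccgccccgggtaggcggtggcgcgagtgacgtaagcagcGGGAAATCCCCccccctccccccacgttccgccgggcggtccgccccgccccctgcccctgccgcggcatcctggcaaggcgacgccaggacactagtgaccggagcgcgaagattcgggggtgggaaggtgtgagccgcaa
Birc3, chr9:7873121-7873420, minus strand: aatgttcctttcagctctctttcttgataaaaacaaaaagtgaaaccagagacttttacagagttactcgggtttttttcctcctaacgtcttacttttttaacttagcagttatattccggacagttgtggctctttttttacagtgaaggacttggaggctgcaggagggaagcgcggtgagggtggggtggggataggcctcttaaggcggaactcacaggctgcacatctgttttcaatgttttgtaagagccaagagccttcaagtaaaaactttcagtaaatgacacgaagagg
Nfkbib, chr7:28766595-28766894, minus strand: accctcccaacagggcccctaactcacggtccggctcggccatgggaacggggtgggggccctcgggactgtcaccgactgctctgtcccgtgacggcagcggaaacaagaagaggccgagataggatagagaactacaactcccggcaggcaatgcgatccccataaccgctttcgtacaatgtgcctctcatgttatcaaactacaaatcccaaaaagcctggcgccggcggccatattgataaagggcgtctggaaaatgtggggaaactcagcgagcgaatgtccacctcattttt
Nfkbie carries GGGGGATTCC upstream of its start. Nfkbia carries 1 match, GGGAATTTCC on the opposite strand, so that the capitals show its reverse complement, and its stretch begins 29 bases before the start. Nfkb2 carries GGGACTTTCC just after the start shown and a further match upstream, and another of its starts has 2 stretches of matches. Rel carries a single stretch in which 3 matches overlap. Tnfaip3 has 2 stretches at the start shown and no match at its other start. The windows of Birc3, Nfkbib and Rela hold none of these letters, which says nothing about sites outside the window. Relb had no promoter in the table. A match in the letters is a description of the sequence and was not tested for binding.

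Most members were lower in AD cells than in AI cells, and Birc3 was the member that passed the adjusted p and the 1.5-fold limit. Each gene was tested with limma, and p-values were adjusted over all 35556 clusters by Benjamini-Hochberg. A gene is called when its adjusted p is under 0.05 and its difference is at least 1.5-fold. Values are log2 array signals, and ratios are AD over AI, so that a negative log2 ratio means a lower signal in AD cells. Of the 9 genes, 1 was called lower in AD cells and none was called higher. Over all clusters, 2.53% were called lower and 1.39% higher, and over the 19938 genes 2.40% and 2.02%. At any fold, 6 of the 9 members had an adjusted p under 0.05 toward lower signal in AD cells, where 9.62% of all clusters and 10.7% of the genes did. In the other direction the count was 1 of 9, against 8.50% of all clusters and 11.0% of the genes. The 4 AD arrays lay wholly below the 4 AI arrays for 7 of the 9 members, and 11.5% of all clusters and 13.2% of the genes had that order. For 1 member they lay wholly above, as for 10.6% of all clusters and 13.6% of the genes. The median log2 ratio of the 9 members was -0.26, beside 0.01 over the 19938 genes. Less RNA per cell and fewer cells that express a gene cannot be told apart in bulk RNA, here and in each result that follows.

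The arrays themselves differed little in overall signal. Array medians were 5.82 to 5.92 log2 in AD cells, against 5.92 to 5.99 log2 in AI cells. After centring every array on its own median signal, the median ratio of all clusters moved to 0.08 and that of the members to -0.19. The balance of calls moved more. As deposited, 495 clusters were called higher in AD cells and 901 lower, and after centring 731 were higher and 647 lower. AD replicate 4 received the lowest array weight, 0.35, where the other 7 arrays had 0.77 to 1.76. Of 14 measured markers of sympathetic neuroblasts, Hand1 alone lay below the median of every array. Dbh (log2 ratio 3.01), Phox2a (1.13) and Th (0.6) were the 3 called higher in AD cells, and none was called lower. Of the 19938 genes, 2.02% were called higher. Without the fold limit, 7 of the 14 were higher and 2 lower, where 11.0% and 10.7% of the genes were. Dbh and Phox2a thus differed more between the phenotypes than any NF-kB member. What this means for the NF-kB genes was not tested. All 12 leukocyte markers, Ptprc and Csf1r among them, lay below the median of every array. Of the markers of fibroblast and endothelial cells, 7 of 10 lay there as well, and of those of Schwann cells and glia 6 of 7. No marker of these other cell types passed the test at any fold. The mean signal of the leukocyte markers was 4.91 to 5.07 log2 on the AD arrays, against 5.02 to 5.06 log2 on the AI arrays.

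**Figure D1:**
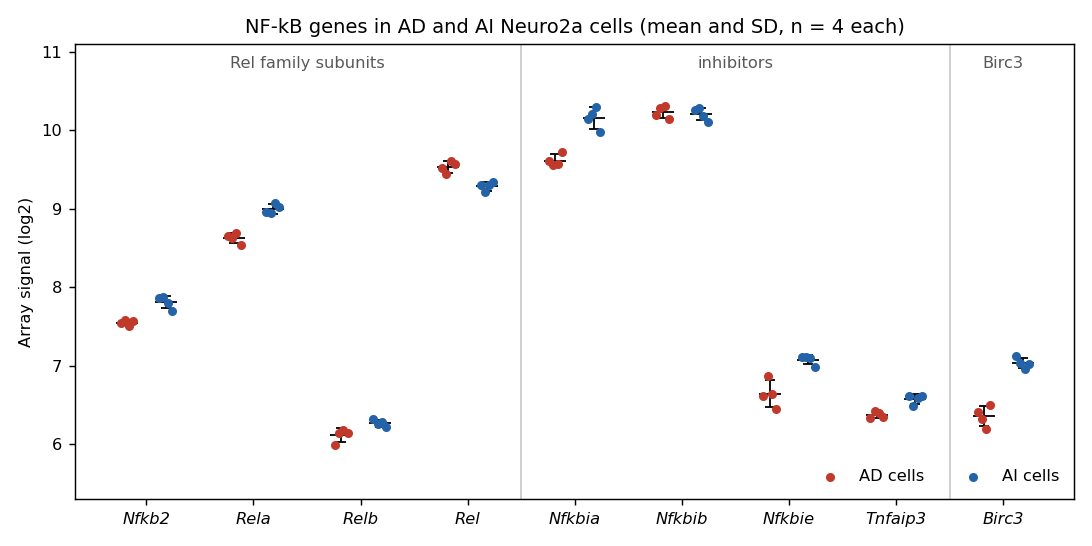
Array signal (log2) of the 9 measured NF-kB genes in AD cells (red, left of each pair) and AI cells (blue, right). Each dot is an array, and black bars are the mean and SD of 4 arrays. The AD dots lie below the AI dots for 7 genes, above them for Rel, and among them for Nfkbib.

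Birc3 encodes an inhibitor of apoptosis, a ubiquitin ligase that acts at TNF receptor complexes and is itself a classical NF-kB target. Its signal was 6.41, 6.31, 6.19 and 6.50 log2 on the AD arrays, against 7.12, 7.03, 6.96 and 7.02 log2 on the AI arrays. Each AD array lay well below each AI array. The log2 ratio was -0.68 (standard error 0.07, 95% interval -0.84 to -0.51, limma adjusted p = 0.000354), which is 1.60-fold higher signal in AI cells. The interval reaches past the 1.5-fold limit on the low side, so the size of the difference is less certain than its direction. At these thresholds the call held in all 16 alternative settings, with log2 ratios of -0.74 to -0.60.

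Among the DNA-binding subunits, Rela, the p65 protein with the main activation domain of the pathway, was lower in AD cells. Its signal was 8.65, 8.63, 8.69 and 8.54 log2 in AD cells, against 8.96, 8.94, 9.07 and 9.03 log2 in AI cells. The groups did not overlap, and replicates of either phenotype lay close together. Its AD over AI ratio was -0.37 log2 (limma, adjusted p = 0.00207, standard error 0.06), under 1.5-fold.

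Nfkb2, whose product is processed to the p52 subunit of the noncanonical branch, was also lower in AD cells. It gave 7.54, 7.58, 7.50 and 7.56 log2 in AD cells, against 7.86, 7.87, 7.80 and 7.70 log2 in AI cells. AI replicate 4 lay closest to the AD arrays, without reaching them. That made a ratio of -0.26 log2 (limma, adjusted p = 0.0112, standard error 0.06), and after median centring it was -0.19 with an adjusted p of 0.0954, past the threshold no longer. Relb, the partner of p52, was near the median signal of the arrays. Its values were 5.99, 6.15, 6.18 and 6.15 log2 in AD cells, against 6.32, 6.26, 6.28 and 6.21 log2 in AI cells. The arrays of the phenotypes were parted by a narrow gap, but the log2 ratio of -0.15 (95% interval -0.28 to -0.02) did not pass the test across all clusters (limma adjusted p = 0.115).

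Rel, the c-Rel subunit best known from lymphocytes, went the other way. It had 9.51, 9.44, 9.61 and 9.57 log2 in AD cells, against 9.30, 9.21, 9.30 and 9.34 log2 in AI cells. Every AD array was above every AI array, by a small margin. The AD over AI ratio was 0.25 log2 (limma, adjusted p = 0.0181, standard error 0.06). It missed the threshold after quantile normalization (0.21, adjusted p = 0.0512), without AD replicate 3 (0.22, adjusted p = 0.0562) and without AI replicate 2 (0.22, adjusted p = 0.0524). Rela was lower and Rel was higher in AD cells in all of the settings tried.

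Of the inhibitors, Nfkbia had the largest difference. It encodes IkB alpha, the inhibitor that NF-kB itself restores within the feedback loop and whose promoter carries the GGGAATTTCC match shown above. The signal was 9.61, 9.55, 9.57 and 9.73 log2 in AD cells, against 10.15, 10.21, 10.29 and 9.97 log2 in AI cells. AD replicate 4 was the highest of its group and AI replicate 4 the lowest of the other, yet the groups stayed apart. The log2 ratio was -0.54 (limma, adjusted p = 0.00152, standard error 0.08), 1.455-fold higher signal in AI cells and just short of the limit. Without AI replicate 4 it was -0.60 and the gene was called.

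Nfkbie encodes IkB epsilon, which also belongs to the feedback inhibitors. It read 6.61, 6.86, 6.64 and 6.45 log2 in AD cells, against 7.12, 7.11, 7.10 and 6.98 log2 in AI cells. The AD arrays were more scattered than the AI arrays, and no array crossed into the other group. The log2 ratio was -0.44 (limma, adjusted p = 0.00755, standard error 0.09), and it kept an adjusted p under 0.05 in all 16 alternatives. Tnfaip3, the A20 protein, edits ubiquitin on signaling complexes and shuts the pathway off upstream of IKK. Its signal was 6.33, 6.42, 6.40 and 6.35 log2 in AD cells, against 6.61, 6.49, 6.59 and 6.62 log2 in AI cells. The difference was smaller than those of Nfkbia and Nfkbie, with a log2 ratio of -0.20 (limma, adjusted p = 0.0281, standard error 0.05). It fell short of the threshold in 9 of the 16 alternatives, among them quantile normalization (-0.12, adjusted p = 0.137) and median centring (-0.125, adjusted p = 0.190), and without AD replicate 1 or 3 or AI replicate 1, 3 or 4.

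Nfkbib, the gene of IkB beta, was the inhibitor without a difference that passed. Its signal was 10.19, 10.28, 10.31 and 10.15 log2 in AD cells, against 10.26, 10.28, 10.19 and 10.11 log2 in AI cells. The groups overlapped throughout. The log2 ratio was 0.02 (95% interval -0.12 to 0.16, limma adjusted p = 0.853), an interval that leaves out differences of the size of Nfkbia and Nfkbie. Whether Nfkbib differed in its response from the other inhibitors was not tested.

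**Figure D2:**
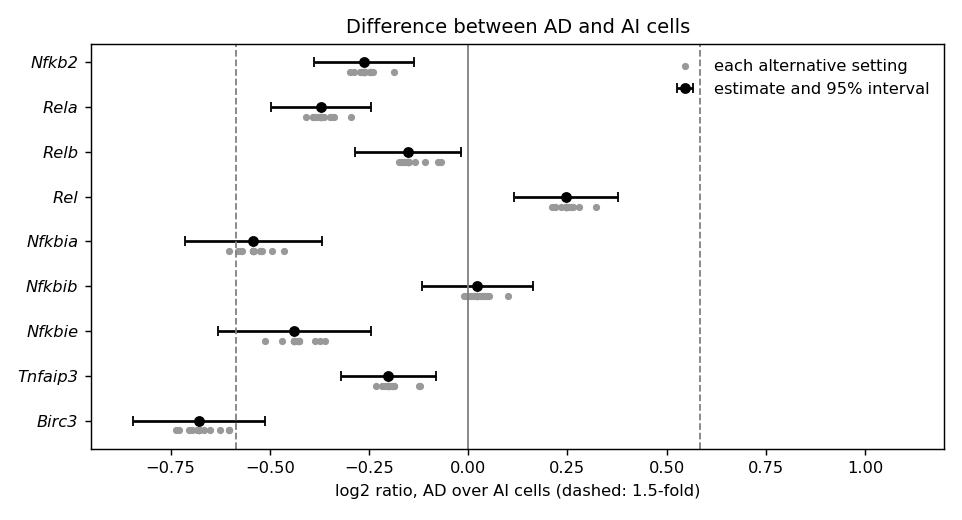
The log2 ratio of AD over AI cells for each NF-kB gene (black, with its 95% interval from limma) and, in grey below it, the ratio under each of 16 alternative settings. Dashed lines mark 1.5-fold. Birc3 lies beyond the lower line with an estimate of -0.68, Rel is on the positive side at 0.25, and Nfkbib is at 0.02.

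Whether related genes changed to a different extent was asked by within-array differences. These cancel a shift shared by all log2 signals of an array, but not one that varies with signal. Only the change of such a difference can be read, since the signals of separate clusters have no common scale. Birc2, the closest relative of Birc3 and its neighbor on chromosome 9 in the RefSeq annotation, had 6.73, 6.85, 6.69 and 6.50 log2 in AD cells, against 6.94, 6.90, 6.78 and 6.91 log2 in AI cells. The groups overlapped, with a log2 ratio of -0.19 (95% interval -0.36 to -0.01, limma adjusted p = 0.136). With its clusters averaged, the ratio of Birc2 was -0.12 (limma adjusted p = 0.153). Birc3 minus Birc2 averaged -0.34 ± 0.24 log2 in AD cells, against 0.15 ± 0.04 log2 in AI cells (mean ± SD of 4 arrays), so that the difference shifted by -0.49 (p = 0.0286 by a two-sided exact permutation test, which with 4 against 4 arrays can go no lower). Adjusted over the 3 pairs compared, the exact p was 0.0857, which does not pass. Unless another pair also reached the smallest possible p, the adjusted value could not be lower. The adjusted test therefore could not decide the question for Birc3 and Birc2. Relb minus Rela shifted by 0.22 (exact p = 0.0571, adjusted p = 0.0857) and Nfkbie minus Nfkbia by 0.10 (exact p = 0.486, adjusted p = 0.486). A difference in response within these pairs was therefore not shown at this number of arrays. The planned pair of Nfkb2 and Nfkb1 was not run because Nfkb1 was not analysed here.

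Xiap, another inhibitor of apoptosis, which blocks caspases directly, had a log2 ratio of 0.05 (95% interval -0.11 to 0.21, limma adjusted p = 0.699). Its AD values were 7.37 to 7.53 log2 and its AI values 7.21 to 7.51 log2. The IAP family list holds Birc2, Xiap and also the IAP antagonists Diablo and Htra2, and not Birc3. None of its 10 measured genes was called. At any fold, 1 of them was higher in AD cells, the mitotic gene Birc5 with a log2 ratio of 0.58, and 2 were lower, Naip5 with -0.42 and Naip6 with -0.39. Over the 19938 genes, 2.02% were called higher and 2.40% lower, and at any fold the shares were 11.0% and 10.7%. Naip5 and Naip6 are near-identical copies whose probes could read either transcript, and both are inflammasome sensors. These 3 were named after their values were seen.

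The genes whose values over the 8 arrays were most like those of Birc3 were Tcf7l2, Drp2 and Ly86. Likeness was taken as the root mean square difference of log2 signals after each gene was centred on its own mean, over the 19938 genes. That difference was 0.067 log2 for Tcf7l2, a transcription factor of the Wnt pathway, 0.071 for Drp2, a relative of dystrophin, and 0.075 for Ly86, a partner of a Toll-like receptor homolog. All 3 were called lower in AD cells, with log2 ratios of -0.70 for Tcf7l2, -0.71 for Drp2 and -0.63 for Ly86. Ly86 fell under 1.5-fold after quantile normalization (-0.58) and after median centring (-0.55). Drp2 and Ly86 lay below the array median on each of the 4 AD arrays. Ly86 also lay below it on AI replicates 2 and 3, at 5.85 and 5.89 log2. As the measure runs over arrays of both phenotypes, it mostly reads the step between AD and AI cells.

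**Figure D3:**
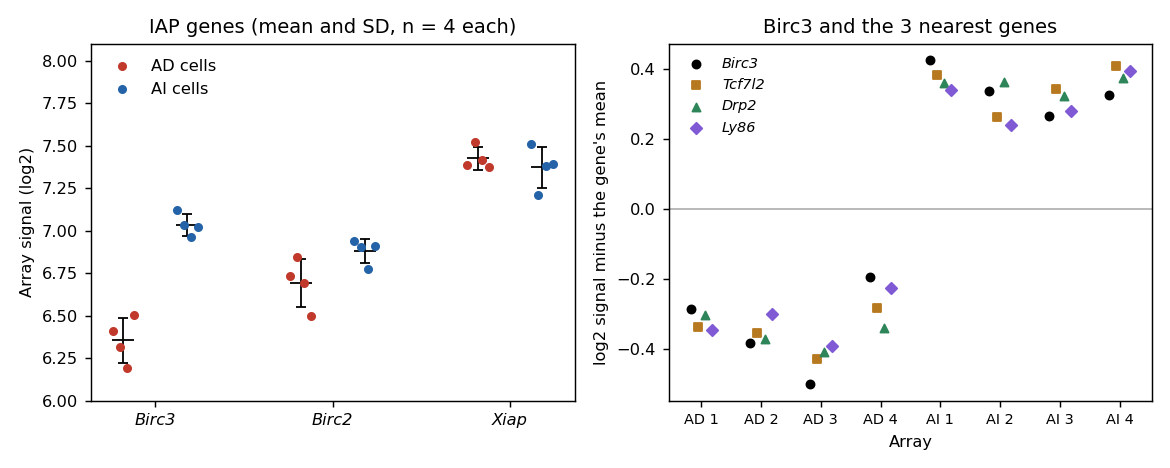
Left, array signal (log2) of Birc3, Birc2 and Xiap in AD cells (red) and AI cells (blue), with dots for arrays and bars for the mean and SD of 4 arrays. Right, Birc3 and its 3 nearest genes, each as log2 signal minus its mean over the 8 arrays. Birc3 is the gene on the left whose groups do not overlap, and on the right all 4 genes lie below 0 on the AD arrays and above 0 on the AI arrays.

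The rest of the pathway was read from 8 lists that cover receptors, ligands, adaptors, IKK kinases with their partners, atypical IkB proteins with other feedback inhibitors, known targets in inflammation, known targets in survival and growth, and the IAP family. They hold 160 measured genes besides the members. Of these, 5 were called higher in AD cells and 10 lower, beside 2.02% and 2.40% of the 19938 genes. At any fold 10 were higher and 31 lower, beside 11.0% and 10.7% of the genes. These shares of all genes are also those to set beside the counts of each list that follows. The median log2 ratio of the 160 genes was -0.05.

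Nfkbiz, an atypical IkB that is induced by NF-kB and acts in the nucleus as a co-activator, was the called gene among 16 atypical IkB and feedback genes. Its signal was 7.36, 7.29, 7.30 and 7.25 log2 in AD cells, against 7.95, 7.98, 8.19 and 8.01 log2 in AI cells. The groups were far apart beside their spread, with a log2 ratio of -0.74 (limma, adjusted p = 0.000103, standard error 0.06). At any fold 3 of the 16 were lower in AD cells and none was higher. The median of the list was -0.05. The others that passed were Tnip1, a binding partner of A20, with a log2 ratio of -0.37, and Rnf11, a further partner, with -0.33. Both were named after their values were seen.

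In the signaling layer the kinases were nearly level and a few adaptors were not. Of 17 IKK kinases and partners none was called, and at any fold 1 was higher in AD cells and 2 were lower, with a median of 0.00. Map3k7, the kinase TAK1 that activates IKK, was the higher gene with a log2 ratio of 0.35, and Ikbkg, the NEMO scaffold of IKK, was among the lower genes with -0.25. Both were named after their values were seen. Among 27 adaptors, Traf5 and Irak2 were called lower in AD cells. Traf5, an adaptor of TNF receptors, had 6.15, 6.31, 6.09 and 6.24 log2 in AD cells, against 7.70, 7.49, 7.55 and 7.44 log2 in AI cells, with no overlap and a log2 ratio of -1.35 (limma adjusted p = 9.58e-06). Irak2, a kinase-like adaptor of interleukin 1 and Toll-like receptors, had 5.79 to 6.09 log2 in AD cells, against 6.55 to 6.91 log2 in AI cells. Its log2 ratio was -0.82 (limma adjusted p = 0.000549), and on AD replicate 1 it lay below the array median. No adaptor was called higher. At any fold 1 adaptor was higher in AD cells and 3 were lower. The higher gene was Tirap, an adaptor of Toll-like receptors, with a log2 ratio of 0.46 (limma adjusted p = 0.00603) and all AD arrays above the AI arrays, and it was named after its values were seen.

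Receptors and ligands held genes of either direction. Of 27 receptors, Ngfr, Tlr3 and Il17rd were called higher in AD cells and none was called lower. At any fold 4 receptors were higher and 2 were lower, the lower genes being Tnfrsf12a, the receptor of the cytokine TWEAK, with a log2 ratio of -0.43 and Tlr4, the receptor of bacterial lipopolysaccharide, with -0.41. Ngfr, the p75 neurotrophin receptor of the TNF receptor family, had a log2 ratio of 0.70, with 10.32 ± 0.05 log2 in AD cells, against 9.62 ± 0.11 log2 in AI cells (mean ± SD of 4 arrays). Tlr3, the endosomal sensor of double-stranded RNA, had 0.68, and in AI cells its signal of 5.94 log2 was about the array median. Il17rd, a member of the interleukin 17 receptor family also known as an antagonist of FGF signaling, had 0.60. Its call was lost in 4 of the 16 alternatives, where the ratio was under 1.5-fold: 0.50 with its clusters averaged, 0.54 without AD replicate 2, 0.58 without AD replicate 3 and 0.57 without AI replicate 1. Of 17 ligands, Tnfsf13b, the B cell survival factor BAFF, was called higher with 0.70. No ligand was called lower, and at any fold 1 was higher and 1 was lower, Tnfsf10, the death ligand TRAIL, with -0.35. Tnfrsf12a, Tlr4 and Tnfsf10 were named after their values were seen. Tnf itself had 5.21 log2 in AD cells, against 5.32 log2 in AI cells, below the array median on all 8 arrays, and Il1a and Il1b were similarly dim. In all, 14 of the 17 ligands and 14 of the 27 receptors lay below the median of every array, and the table holds no detection calls that would tell such signals from background. Tnf, Il1a and Il1b were named for their place in the pathway.

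Of 30 inflammatory targets of NF-kB measured, 4 were called lower in AD cells, none was called higher and 26 were not called, where 2.40% of all genes were called lower. At any fold 11 were lower and none was higher, where 10.7% of all genes were lower, and the median log2 ratio was -0.12. Lcn2 had the largest ratio, -1.95, followed by the matrix protease gene Mmp9 with -1.02 and the chemokine genes Cxcl10 with -0.80 and Cxcl1 with -0.62. Cxcl1 lost its call in 4 of the 16 alternatives, at -0.56 after quantile normalization, -0.54 after median centring, -0.54 without AD replicate 2 and -0.55 without AI replicate 4. Mmp9 read 5.74 ± 0.20 log2 in AD cells, close to the array medians, against 6.76 ± 0.10 log2 in AI cells (mean ± SD of 4 arrays). Of the 30, 17 lay below the median of every array. The leukocyte markers also lay there, none passed the test, and their part in these differences was not tested.

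Of 20 targets in survival, stress and growth measured, 3 were called lower in AD cells, 1 higher and 16 not, where 2.40% of all genes were called lower and 2.02% higher. At any fold 7 were lower and 2 higher, with a median of -0.15, where 10.7% of all genes were lower and 11.0% higher. Tnc, the matrix glycoprotein tenascin C, had a log2 ratio of -2.52. Its AD mean was 5.82 log2, and it lay below the array median on 3 of the 4 AD arrays. The size of that ratio is therefore less certain. Nqo1, a quinone reductase best known as a target of NRF2, had -1.56, and the antiapoptotic gene Bcl2 had -0.79. In the opposite direction, Gadd45b, a stress gene that NF-kB induces and that restrains JNK signaling, was called higher in AD cells. Its values were 7.72, 7.70, 7.67 and 7.52 log2 in AD cells, above all the AI values of 7.07, 7.08, 7.04 and 6.94 log2, and the log2 ratio was 0.62 (limma adjusted p = 0.000222). Sod2, the mitochondrial superoxide dismutase and a well known NF-kB target, was also higher in AD cells at 0.33 (limma adjusted p = 0.00326), under 1.5-fold. Sod2 was named after its values were seen.

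**Figure D4:**
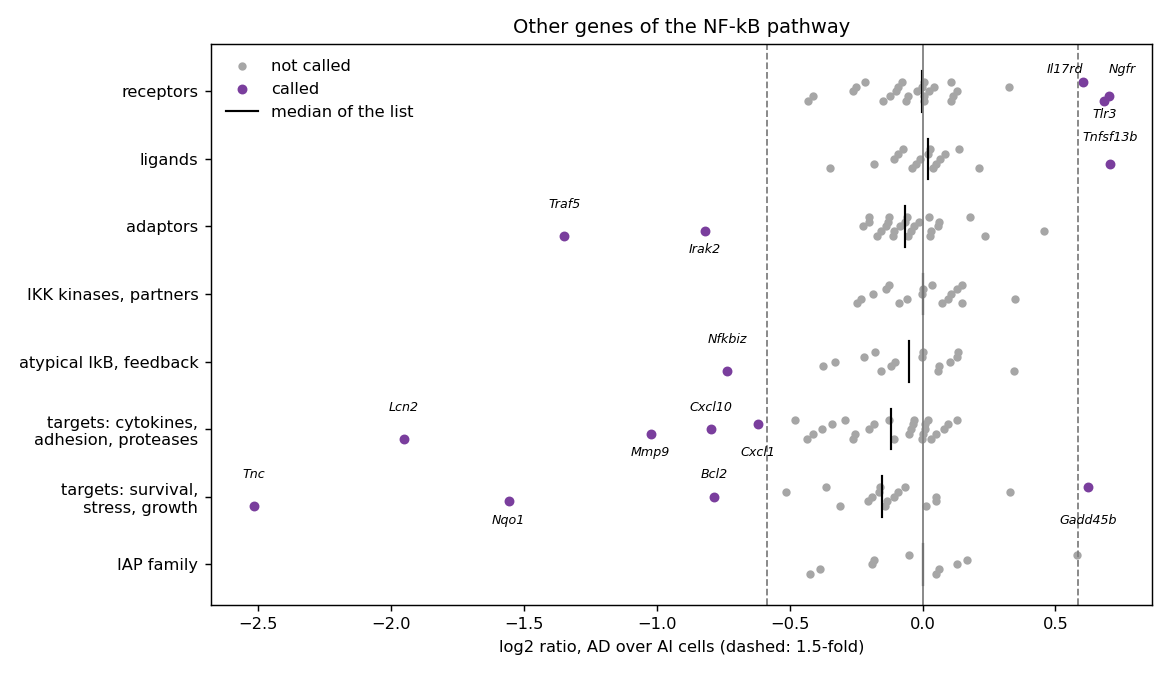
The log2 ratio of AD over AI cells for 160 other genes of the NF-kB pathway in 8 lists, with genes in 2 lists drawn in each. Purple dots are called genes, grey dots are genes not called, black ticks are list medians and dashed lines mark 1.5-fold. Called genes lie on the negative side for adaptors, atypical IkB genes and inflammatory targets, and on the positive side for receptors and ligands.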

How the data were processed

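RNA of Neuro2a cells was read on Affymetrix mouse gene ST arrays, 4 of AD and 4 of AI cultures. The deposited table holds log2 signals that the authors made with GCRMA. The submitters' notes name Partek 6.5, and the methods also name a later Partek, GeneSpring and further normalizations, which the table does not hold. Values were used as deposited. Arrays give no counts, so precision rests on the 4 arrays of a phenotype and on the variance that limma shares across clusters.

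Clusters were named through GEO's platform annotation: 21789 had 1 symbol, 1621 had several and were not named, and 12146 were unnamed here. RefSeq gene numbers matched 21698. The AD over AI ratio was fitted by lmFit and eBayes (limma 3.58.1, R 4.3.3), with Benjamini-Hochberg adjustment over all clusters. The model was tested on simulated data. Exact permutation tests used Python 3.11.15.

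Members, lists and tests were chosen with earlier results of these data known. Named genes are the members, Birc2, Xiap, the called genes of each list (at most 4 per direction) and the 3 genes nearest to a called member. Alternatives were quantile normalization, median centring, a filter at the 40th percentile of mean signal, no moderation (the methods' model), trend with robust moderation, array weights, replicate number as a block, averaging clusters of a gene, other thresholds and leaving out each array. Blots, flow cytometry and tumors were not used here.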

Additional observations from a re-analysis of the deposited data

Results flagged for a closer look

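Nfkbie in AI cells stood out among the 58 groups of 4 arrays examined for the genes named. AI replicate 4 had 6.98 log2, below the other AI arrays, which lay at 7.10 to 7.12 log2. The gap was 0.905 of the range of the group, above Dixon's critical value for 4 samples. Chance alone marks about 1 in 20 such groups, so a single one among 58 is no more than chance gives. AI replicate 4 was also the lowest AI array for 5 of the 9 members, and without it the log2 ratio of Nfkbie was -0.47.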

How the results depend on the processing

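Birc3 was the called member in every setting run except that Nfkbia joined it without AI replicate 4 (2 called), that 4 members passed at a 1.2-fold limit and that 0 passed at 2-fold. Without single arrays, 1 to 2 members were called. At any fold 5 to 7 members passed in all settings. Without single arrays Nfkbib ranged up to 0.053 and Xiap up to 0.097. Nfkbib turned to -0.003 without AD replicate 3 and to -0.01 without AI replicate 4, and Xiap to -0.002 without AI replicate 2. The shift of Birc3 minus Birc2 was -0.60 to -0.42 without single arrays, with an exact p of 0.0571 when an AI array was left out. Relb minus Rela shifted by 0.34 after quantile normalization (exact p = 0.0286), by 0.27 without AD replicate 1, and by 0.18 to 0.27 without single arrays. Nfkbie minus Nfkbia shifted by 0.01 to 0.21. The causes were not tested. With replicate number as a block, 1 member was called and 6 passed at any fold, since Tnfaip3 missed (adjusted p = 0.0934). Deviations of same-numbered AD and AI arrays correlated at -0.18 to 0.08, so the numbers give no pairing. Clusters near the array median, Relb, Tnfaip3 and Birc3 in AD cells among them, limit how well a ratio is known. Of the 160 pathway genes, 13 to 16 were called.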
